A study of Homo sapiens with 6 samples.

Results

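The genes described here are 48 named interferon-stimulated and antigen presentation genes, out of 57773 genes in the count table, compared between wild-type HAP1 cells and HAP1 cells with an edited CTCF. They were taken by symbol from a written list, and the rule uses no measured value, although the list was drawn up with earlier results of these data known. Of the 48, 43 were found by the symbol in the authors' deposited table, and MX2, IFI44L, TAP1, PSMB8 and PSMB9 were found by Ensembl identifier. HAP1 is a near-haploid human cell line derived from a chronic myeloid leukaemia. One group is wild type (3 libraries), and the other carries the CTCF substitutions Y226A and F228A (3 libraries). These replace a tyrosine and a phenylalanine by alanine in CTCF, the zinc-finger protein that binds insulators and anchors cohesin loops. The edit was made with Cas9, a guide RNA and a repair oligonucleotide under transient puromycin selection, and clones were checked by sequencing. No interferon treatment is given for either group. The mutant libraries share 1 line number in their descriptions, and the labels do not say whether they came from separate clones or cultures. What the substitutions did and what is particular to the edited line cannot be told apart, and p-values measure only the spread between these 6 libraries.

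In an interferon response, RNA or DNA sensors in the cytosol lead through IRF factors to the secretion of interferons. Interferons bind surface receptors, and the kinases there activate STAT factors, of which STAT2 acts with IRF9 in a complex that binds the interferon-stimulated response element in the promoters of target genes. The targets block viral entry, degrade viral RNA, stop translation, modify proteins with ISG15 or ADP-ribose, and raise peptide presentation by MHC class I. Many of them are also transcribed at a low basal level in cells that have met no virus.

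The promoters of the members differ in whether and where they hold the core of that element. RefSeq windows on GRCh38.p14, from 250 bases before to 50 bases after the start of a transcript, were held for 38 of the 48 members. The searched letters were GAAA, 2 bases of any kind and GAAA again (read on the other strand as TTTC, 2 bases and TTTC), with both strands searched and overlapping matches allowed. They were present in 24 of these 38 members (63.16%) and in 4.38% of the 27305 genes with a window (3.57% of all 35116 windows). A shared stretch of 180 bases, from 170 before to 10 after the start, is printed only for members that hold a match. They are 5 members whose transcripts were called higher in the mutant, IFITM1, which was called lower, and B2M, which was not called. DDX58, STAT2, ADAR and TRIM25, also called higher, had a window without a match and are not printed. Capitals mark the matches, and each line reads 5′ to 3′ towards the start.
IFIH1, chr2:162318675-162318854, minus strand: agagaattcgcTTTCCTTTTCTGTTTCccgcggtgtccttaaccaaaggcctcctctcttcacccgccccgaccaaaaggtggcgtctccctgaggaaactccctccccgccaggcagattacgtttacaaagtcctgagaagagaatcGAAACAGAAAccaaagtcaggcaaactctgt
EIF2AK2, chr2:37156971-37157150, minus strand: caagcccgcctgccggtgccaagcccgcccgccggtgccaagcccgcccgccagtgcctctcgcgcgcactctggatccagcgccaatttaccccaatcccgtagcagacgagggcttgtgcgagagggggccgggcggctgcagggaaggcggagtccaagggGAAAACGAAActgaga
OAS3, chr12:112938304-112938483, plus strand: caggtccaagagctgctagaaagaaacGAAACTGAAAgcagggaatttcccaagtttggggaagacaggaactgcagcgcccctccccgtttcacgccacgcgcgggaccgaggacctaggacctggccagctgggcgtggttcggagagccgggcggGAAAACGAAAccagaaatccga
DTX3L, chr3:122564168-122564347, plus strand: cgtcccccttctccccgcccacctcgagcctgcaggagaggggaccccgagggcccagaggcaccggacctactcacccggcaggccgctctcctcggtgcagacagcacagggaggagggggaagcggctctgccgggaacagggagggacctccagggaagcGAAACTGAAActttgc
PARP14, chr3:122680669-122680848, plus strand: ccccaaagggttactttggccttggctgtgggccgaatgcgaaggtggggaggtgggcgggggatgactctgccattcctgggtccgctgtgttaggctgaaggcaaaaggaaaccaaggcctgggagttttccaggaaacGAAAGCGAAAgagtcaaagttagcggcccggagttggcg
IFITM1, chr11:313870-314049, plus strand: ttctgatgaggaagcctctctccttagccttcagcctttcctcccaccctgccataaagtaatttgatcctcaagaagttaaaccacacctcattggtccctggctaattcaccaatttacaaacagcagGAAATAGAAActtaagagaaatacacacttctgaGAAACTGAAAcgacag
B2M, chr15:44711347-44711526, plus strand: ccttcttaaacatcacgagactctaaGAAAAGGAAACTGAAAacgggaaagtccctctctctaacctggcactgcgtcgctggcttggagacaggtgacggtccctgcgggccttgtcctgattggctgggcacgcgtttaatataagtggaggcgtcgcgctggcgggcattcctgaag

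In IFIH1, DTX3L, PARP14, OAS3 and EIF2AK2, called higher, and in IFITM1, called lower, a match lies close to the transcript start. In B2M the overlapping matches lie only further upstream, beginning at positions −144 and −138 relative to the start. B2M does not stand for all members not called, since IFIT5 and PARP12, not printed here, hold matches close to the start. The capital stretch in DTX3L is at the same time the match of PARP9, which is transcribed the other way. The genomic bases chr3:122564332-122564341 begin at position −6 of DTX3L and at position −41 of PARP9, whose starts are 38 bases apart. Among members with a window, a match was found in 6 of 10 called higher, 1 of 2 called lower, 10 of 15 tested and not called, and 7 of 11 not tested. The letters were thus present at a like share in members not called and in those called higher. Positions were then limited to between 50 bases before and 10 bases after the start. Of the members with a window, 6 of 10 called higher and 1 of 2 called lower had a match there. So did 2 of 15 not called (IFIT5 and PARP12) and 4 of 11 not tested. The share of all genes with a match in this interval was not taken, so these counts have no background beside them. The interval was chosen after the positions were seen, and matches of MX1 and TRIM21 begin just beyond it, at positions 11 and 17. PARP9 and DTX3L share 1 match, and no test was made. A second pattern, TTC and GAA with 3 bases of any kind between them, which reads the same on both strands and is the core of the sites that STAT dimers bind, was present in 11 of the 38 members (28.95%) and in 9.38% of the genes with a window (7.66% of all windows).

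CTCF itself was transcribed in all 6 libraries, at 105.5, 110.8 and 111.1 CPM (counts scaled by library size and TMM factor) in the wild type and at 131.4, 139.6 and 134.6 CPM in the mutant. The mutant libraries were all higher, with a log2 fold change of 0.31 ± 0.06 (SE) and an edgeR adjusted p of 0.00042. The count of a gene does not show the substitutions, so it does not check the genotype. The libraries held 7764009 to 9610028 counts in genes, at which 3 counts, the limit that a count of 0 allows, correspond to 0.312 to 0.386 CPM. Correlations between libraries on the log2 CPM scale were 0.992 to 0.993 within and 0.968 to 0.970 between genotypes, across genes, which are not independent replicates. Markers of leukocytes were at or near 0, with PTPRC, CD3D, CD3E, MS4A1, LYZ, NKG7 and MPO among the 7 of 12 at 0 and a summed level of 0.127 to 0.935 CPM in the wild type and 0.13 to 0.571 CPM in the mutant. Erythroid and megakaryocyte markers (4 of 6 at 0) summed to 21.1 to 24.2 and 19.96 to 24.1 CPM, and endothelial markers (1 of 3 at 0) to at most 0.254 CPM in any library. Fibroblast markers summed to 26.2 to 30.7 CPM in the wild type and 31.4 to 41.4 CPM in the mutant, with COL1A2, DCN and LUM at 0 (3 of 7). The sum was nearly all COL1A1, the marker that was called higher (log2 fold change 0.40 ± 0.11, edgeR adjusted p = 0.00962, and 0.0552 without wild-type replicate 2), and its part in the results was not tested. The other detected fibroblast markers were too low to be tested, with means of 0.358 and 0 CPM for COL3A1, 0.784 and 0.201 CPM for PDGFRB and 1.12 and 0.602 CPM for THY1 in the wild type and the mutant. In such bulk samples fewer cells of a type and less RNA per cell cannot be told apart.

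Among the 33 members that could be tested, changes were called in both directions. Most called changes were rises of less than 2-fold, among them ADAR, EIF2AK2, TRIM22, DTX3L and PARP9, with the larger rise of IFIH1 from a low level. The 3 members called lower were IFI16, IFITM1 and IFITM2. Counts were found for 43 members, and 33 passed the filter on low counts and were tested. Of these, 12 were called higher in the mutant (36.4%; 11.9% of all tested genes were), 3 were called lower (9.09%; 9.26% of all tested genes were), and 18 were not called. The share called lower was close to that of all tested genes. At an edgeR adjusted p under 0.05 in either direction the shares were 45.5% of members and 21.2% of all 14835 tested genes. The median log2 fold change was 0.17 over the tested members and −0.001 over all tested genes, with 25 members above 0 and 8 below. The libraries of the groups did not overlap in 13 members higher in the mutant and 4 lower, against 19.0% and 16.5% of all tested genes. The filter can pass a gene through 1 group only, as it did for IFIH1 (the mutant) and IFI16 (the wild type). Among the 30 members at or over its level of about 1.2 CPM in every library, 11 were higher, 2 lower and 17 not called, with a median of 0.18.

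**Figure D1:**
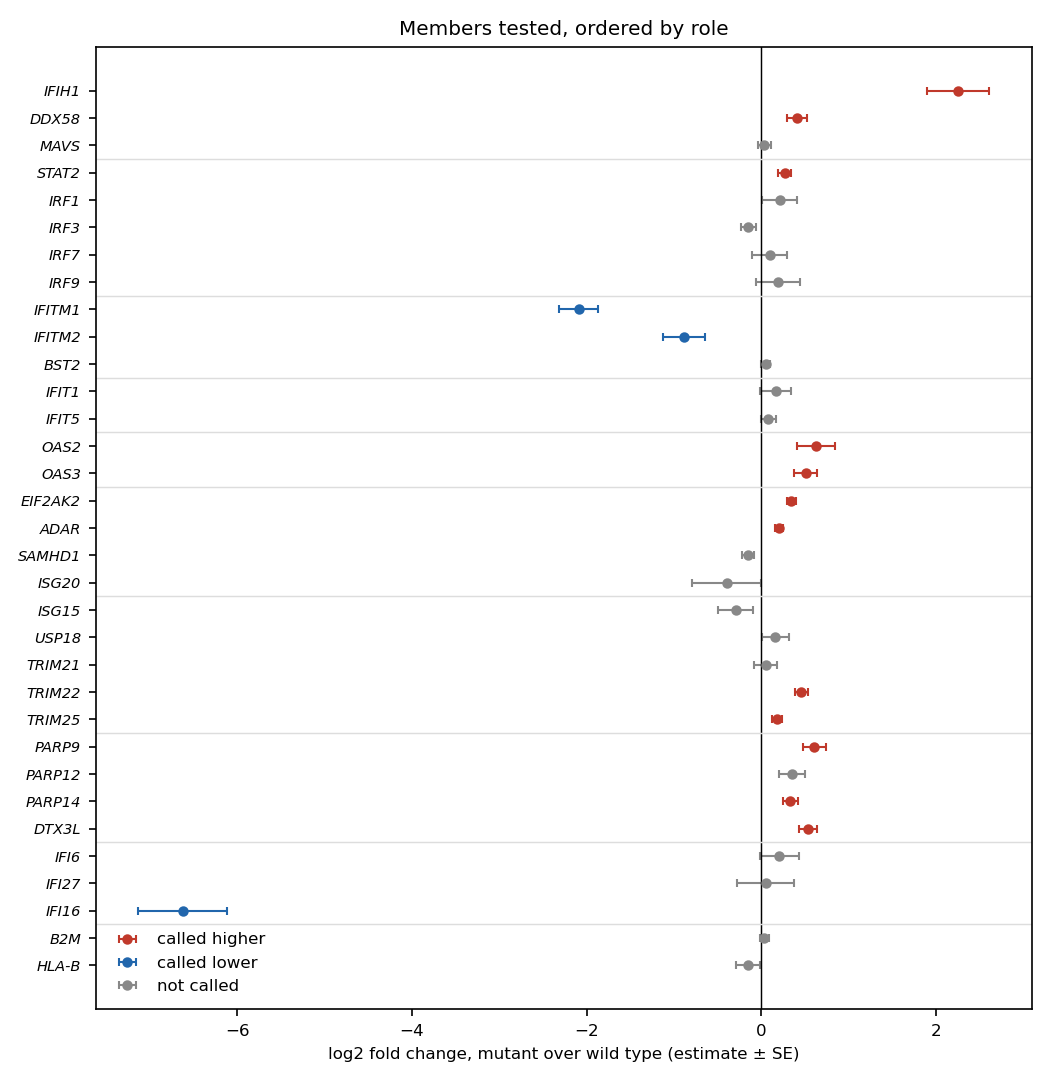
Log2 fold change of mutant over wild type with its standard error for the 33 tested members, grouped by role. The rises of most called members lie between 0.18 and 0.63, IFIH1 stands at 2.26, and IFITM1 and IFI16 lie at −2.09 and −6.62.

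Among the cytosolic RNA sensors, IFIH1 and DDX58 were called higher and their adaptor MAVS was not called. IFIH1 encodes MDA5, which recognises long double-stranded RNA, and stood at 0.935, 0.509 and 0.504 CPM in the wild type (9, 4 and 4 counts) and 4.11, 3.37 and 2.32 CPM in the mutant (36, 26 and 22 counts). Every mutant library was above every wild-type library, with a log2 fold change of 2.26 ± 0.36, or 4.78-fold, and an edgeR adjusted p of 7.34e-05. The gene lies on the minus strand of chromosome 2 (GRCh38, 162267079 to 162318703) and overlaps no exon of another gene in GENCODE v29.

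DDX58 encodes RIG-I, the sensor of RNA with a triphosphate end. It was measured at 14.8, 14.2 and 13.4 CPM in the wild type and 18.1, 18.5 and 19.9 CPM in the mutant, again with no overlap. The log2 fold change was 0.41 ± 0.11 with an edgeR adjusted p of 0.0115, which rose to 0.0586 when wild-type replicate 3 was left out and 0.0626 when mutant replicate 3 was. MAVS, the mitochondrial protein through which both sensors signal, differed by 0.03 on the log2 scale (edgeR adjusted p = 0.796). DHX58, which encodes the regulator LGP2, stayed at 0.882 CPM or less in every library and was not tested.

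**Figure D2:**
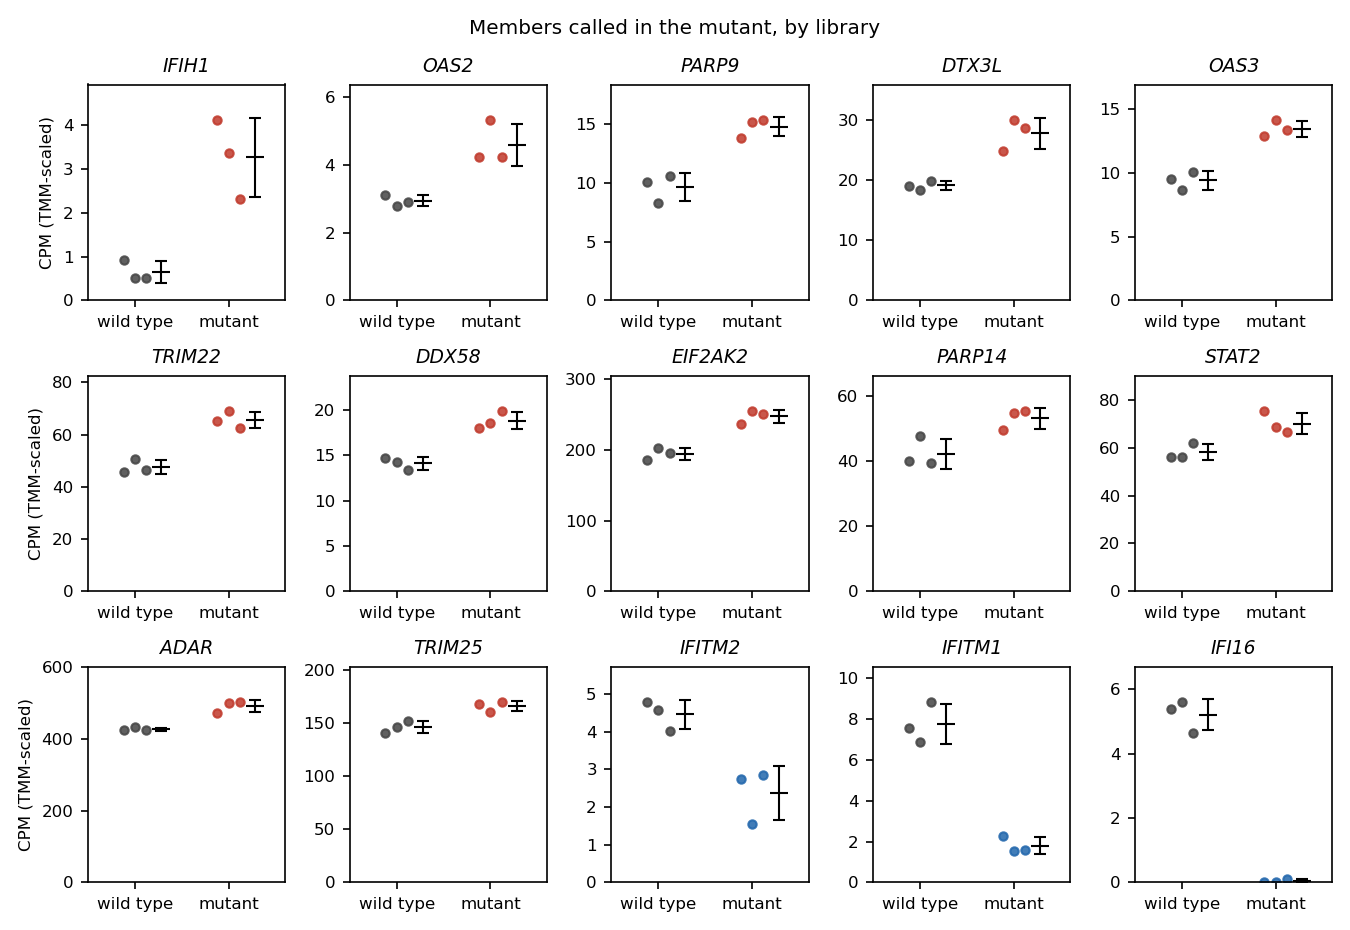
TMM-scaled CPM of each library (points, linear axes from 0, 1 panel per gene) with the mean and SD of 3 libraries (bars beside them) for the 15 called members, wild type in grey and mutant in red where called higher or blue where called lower. In each panel the range of the mutant libraries lies apart from that of the wild type. The genes were picked by their call in these same libraries, so this adds no support. Of all tested genes, 35.5% had ranges apart in either direction.

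Of the transcription factors, STAT2 alone was called among the 5 tested. STAT2 gives the complex it forms with IRF9 its activation domain. Its levels were 56.1, 56.2 and 61.9 CPM in the wild type and 75.1, 68.4 and 66.5 CPM in the mutant. The ranges were apart by a small margin, with a log2 fold change of 0.27 ± 0.07 and an edgeR adjusted p of 0.0109, or 0.0533 without wild-type replicate 1. IRF1, IRF3, IRF7 and IRF9, of which IRF3 and IRF7 act downstream of the sensors, had log2 fold changes of 0.21, −0.15, 0.10 and 0.19 with edgeR adjusted p-values of 0.499, 0.242, 0.789 and 0.641.

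Of the 3 tested membrane restriction factors, IFITM1 and IFITM2 were called lower. IFITM1, IFITM2 and IFITM3 are neighbouring genes on chromosome 11 whose small membrane proteins hinder fusion of enveloped viruses. IFITM1 was measured at 7.58, 6.87 and 8.82 CPM in the wild type (73, 54 and 70 counts) and 2.29, 1.56 and 1.58 CPM in the mutant (20, 12 and 15 counts). All mutant libraries were below all wild-type libraries, with a log2 fold change of −2.09 ± 0.22, or 4.25-fold higher in the wild type, and an edgeR adjusted p of 3.96e-07. IFITM2 stood at 4.78, 4.58 and 4.03 CPM against 2.74, 1.56 and 2.85 CPM, without overlap. Its log2 fold change was −0.88 ± 0.24 with an edgeR adjusted p of 0.0112, which became 0.051 when wild-type replicate 1 was left out and 0.0666 when mutant replicate 2 was. IFITM3 had 6, 1 and 5 counts in the wild type and 1, 1 and 2 in the mutant and was too low to be tested. The annotated exons of IFITM1 and IFITM2 overlap on the same strand and the genes are near-identical copies in part, so the counting could split or drop their shared reads, and their separate values are uncertain. BST2, whose protein tetherin holds budding virus at the cell surface, was abundant and not called, at 122.5 to 128.2 CPM in the wild type and 126.7 to 133.3 CPM in the mutant (log2 fold change 0.05, edgeR adjusted p = 0.583).

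The IFIT genes, a cluster on chromosome 10 whose proteins bind viral RNA and its translation machinery, had no called member. IFIT1 was at 6.86, 6.995 and 8.57 CPM in the wild type and 6.40, 9.20 and 9.50 CPM in the mutant (log2 fold change 0.17, edgeR adjusted p = 0.555). IFIT5 was at 31.0, 35.2 and 31.9 CPM against 33.3, 37.6 and 33.2 CPM (log2 fold change 0.08, edgeR adjusted p = 0.568). The groups overlapped in both genes. IFIT3 was below the filter, at 1.14, 1.15 and 1.39 CPM in the wild type and 0.8, 0.778 and 0.528 CPM in the mutant. Its groups did not overlap, yet with every gene of at least 1 count in the fit its edgeR adjusted p was 0.308. IFIT2 had 8, 1 and 4 counts against 2, 4 and 4.

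The MX genes encode dynamin-like proteins that trap viral nucleocapsids. MX1 had 7, 4 and 8 counts in the wild-type libraries and 1, 0 and 0 in the mutant, so no fold from the model is given. The ratio of the summed counts, scaled by depth, was 19.4 in favour of the wild type, with a 95% counting interval of 3.08 to 805.4. MX1 was under the filter, and with every gene of at least 1 count in the fit its edgeR adjusted p was 0.00109. In the authors' deposited table it is lower in the mutant with an adjusted p of 0.0276. MX2 had 0 counts in all 6 libraries.

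OAS proteins make the oligoadenylates that activate RNase L. OAS3 stood at 9.56, 8.65 and 10.1 CPM in the wild type and 12.9, 14.1 and 13.4 CPM in the mutant, with no overlap, a log2 fold change of 0.51 ± 0.13 and an edgeR adjusted p of 0.00757. OAS2, its neighbour on chromosome 12, stood at 3.12, 2.80 and 2.90 CPM against 4.23, 5.31 and 4.22 CPM. The mutant libraries of OAS2 were all higher, with a log2 fold change of 0.63 ± 0.22 and an edgeR adjusted p of 0.043. The call was lost in most alternatives. Without wild-type replicates 1, 2 and 3 the edgeR adjusted p was 0.0814, 0.107 and 0.107, without mutant replicates 2 and 3 it was 0.174 and 0.0634, and in DESeq2 it was 0.248. OAS1, the third gene of the cluster, had only 4, 2 and 4 counts in the wild type and 5, 2 and 5 in the mutant, and OASL had 1 count in all.

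Among effectors that act on RNA and translation, EIF2AK2 and ADAR were called higher. EIF2AK2 encodes PKR, the kinase that stops translation when it binds double-stranded RNA. It was measured at 186.2, 202.7 and 195.2 CPM in the wild type and 237.0, 254.4 and 250.6 CPM in the mutant, with no overlap (log2 fold change 0.35 ± 0.05, edgeR adjusted p = 5.02e-05). Its annotated exons overlap genes on the opposite strand, and the strand setting of the counting is not given in the sources used here. ADAR edits adenosine to inosine in double-stranded RNA and so limits sensing of the cell's own transcripts. Its levels were 424.2, 432.4 and 424.1 CPM against 473.0, 501.3 and 501.9 CPM, a small change with little spread (log2 fold change 0.20 ± 0.05, edgeR adjusted p = 0.00251). SAMHD1, which depletes the nucleotides needed for reverse transcription, was at 83.2 to 88.8 CPM in the wild type and 75.2 to 81.9 CPM in the mutant. Its groups did not overlap, and its log2 fold change of −0.15 ± 0.07 was not called (edgeR adjusted p = 0.116). ISG20, a nuclease of single-stranded RNA, was not called either (log2 fold change −0.40 ± 0.39, edgeR adjusted p = 0.535).

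In the group of ISG15 and ubiquitin ligases, TRIM22 and TRIM25 were called higher. TRIM22, a ubiquitin ligase with antiviral activity, stood at 45.6, 50.8 and 46.5 CPM in the wild type and 65.4, 68.8 and 62.4 CPM in the mutant, with no overlap (log2 fold change 0.46 ± 0.08, edgeR adjusted p = 0.000101). TRIM25, which ubiquitinates RIG-I, stood at 140.4, 146.8 and 151.8 CPM against 167.8, 160.7 and 169.5 CPM (log2 fold change 0.18 ± 0.06, edgeR adjusted p = 0.0206). The groups were apart in TRIM25 as well, and its adjusted p became 0.111 when wild-type replicate 1 was left out and 0.106 when mutant replicate 3 was. Annotated exons of both genes overlap those of a neighbour on the same strand, OR56B1 for TRIM22 and C17orf67 for TRIM25. ISG15, the ubiquitin-like modifier and one of the most inducible interferon targets, was at 4.78, 5.21 and 5.54 CPM in the wild type and 5.03, 4.28 and 3.38 CPM in the mutant, with overlapping groups (log2 fold change −0.29 ± 0.20, edgeR adjusted p = 0.345). USP18, which removes ISG15 and damps receptor signalling, and TRIM21, a cytosolic antibody receptor, had log2 fold changes of 0.16 and 0.05 and edgeR adjusted p-values of 0.516 and 0.83.

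Of the 4 tested genes of ADP-ribosylation, PARP9, PARP14 and DTX3L were called higher (75%, against 11.9% of all tested genes). All 4 had groups that did not overlap, with the mutant higher, as had 19.0% of all tested genes. PARP9, PARP14 and DTX3L lie in the same stretch of chromosome 3, between KPNA1 and HSPBAP1, the nearest tested protein-coding genes that are no members. Their calls are therefore not from separate places in the genome. PARP9 and the ubiquitin ligase DTX3L form a complex, and their genes lie head to head on chromosome 3 around the shared match printed above. PARP9 stood at 10.1, 8.27 and 10.6 CPM in the wild type and 13.8, 15.2 and 15.3 CPM in the mutant (log2 fold change 0.61 ± 0.13, edgeR adjusted p = 0.00212). DTX3L stood at 19.1, 18.4 and 19.9 CPM against 24.9, 29.9 and 28.6 CPM (log2 fold change 0.54 ± 0.10, edgeR adjusted p = 0.000604). Both were thus raised in every mutant library by about the same log2 amount, but their first exons overlap on opposite strands, so reads there cannot be told apart without the strand setting. PARP14, a mono-ADP-ribosyltransferase further along the same chromosome, was at 39.9, 47.6 and 39.3 CPM in the wild type and 49.5, 54.8 and 55.2 CPM in the mutant. Its log2 fold change was 0.33 ± 0.09 with an edgeR adjusted p of 0.00715, or 0.0503 without wild-type replicate 3. PARP12, a related transferase on chromosome 7, was at 11.5, 7.63 and 10.5 CPM against 11.7, 13.5 and 13.1 CPM and was not called (log2 fold change 0.35 ± 0.15, edgeR adjusted p = 0.103).

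IFI16 had the largest fitted change of the 33 tested members. It encodes a nuclear and cytosolic DNA sensor and lies on the plus strand of chromosome 1 (GRCh38, 158999968 to 159055155) without overlapping exons of other genes. The wild-type libraries had 52, 44 and 37 counts (5.401, 5.60 and 4.66 CPM), and the mutant libraries had 0, 0 and 1. The ratio of summed counts, scaled by depth, was 135.7 in favour of the wild type, with a 95% counting interval of 23.9 to 5399, and the edgeR adjusted p was 2.65e-09. The fitted log2 fold change of −6.62 depends on the prior count. The RefSeq windows of IFI16 held no match to the response element core. IFI6 and IFI27, 2 small hydrophobic proteins of the response, were not called (log2 fold changes 0.21 and 0.05, edgeR adjusted p = 0.569 and 0.934). IFI35 had 10, 3 and 9 counts against 17, 13 and 7, IFI44 had 1 count in all, and IFI44L had 0.

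**Figure D3:**
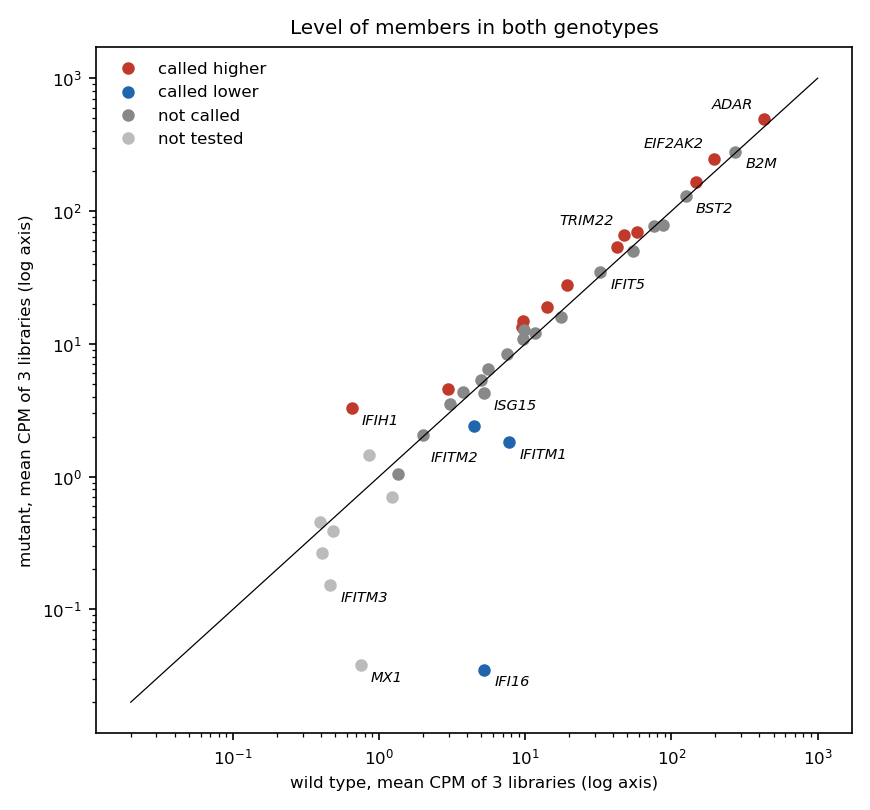
Mean CPM of 3 libraries in the mutant against the wild type (both log axes) for the 40 members with counts in both genotypes, with the line of equal levels. Most points lie near the line, IFIH1 lies above it, and IFITM1, MX1 and IFI16 lie below.

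Antigen presentation by MHC class I could be read from only part of its genes. B2M, the light chain of all class I molecules, was at 260.9, 288.8 and 268.5 CPM in the wild type and 266.4, 295.6 and 278.3 CPM in the mutant, with overlapping groups (log2 fold change 0.04 ± 0.05, edgeR adjusted p = 0.677). HLA-B, a class I heavy chain, had 197, 115 and 140 counts against 164, 109 and 141 and was not called (log2 fold change −0.15 ± 0.14, edgeR adjusted p = 0.492). HLA-C had 1 count in all 6 libraries, and TAP1, which loads peptides into the endoplasmic reticulum, and the immunoproteasome subunits PSMB8 and PSMB9 had 0. The zeros extend beyond these genes. In GENCODE order, 169 of the 178 protein-coding genes between ZSCAN23 and BAK1 on chromosome 6 (94.9%) had 0 counts in all libraries, against 19.9% of the other genes of chromosome 6 and 4013 of all 19085 other protein-coding genes. RPS18, TUBB, BRD2 and BAG6, which practically every cell transcribes, were among those at 0. These boundaries and genes were chosen after their values were seen. A count of 0 for a member in this block is therefore given only as the value listed, and no level is read from it. HLA-B had 866 counts over the 6 libraries. Its exons overlap those of HLA-C in the annotation, and class I genes are near-identical copies in part, so its value is uncertain.

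**Figure D4:**
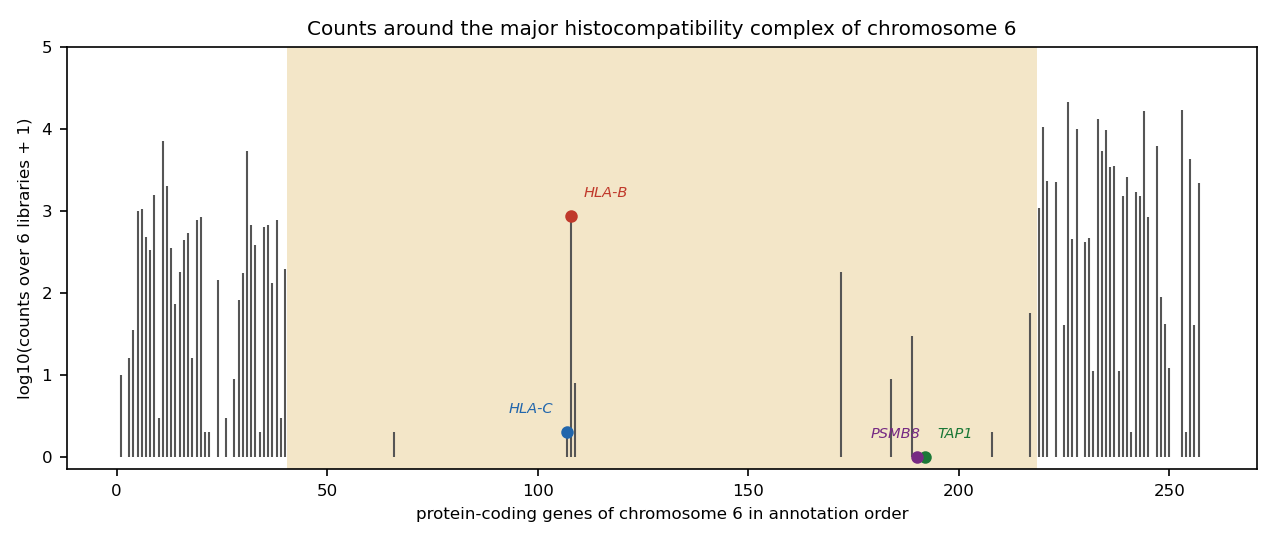
Counts summed over 6 libraries, as log10 of the count plus 1, of protein-coding genes in annotation order along chromosome 6; the shaded band covers the genes between ZSCAN23 and BAK1, and points mark HLA-B, HLA-C, PSMB8 and TAP1. In the band 169 of 178 genes are at 0, with HLA-B at 866 counts among the exceptions, and bars are frequent on either side.

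Levels were set beside each other between members per length of the longest principal transcript in the annotation. Which transcript the cells use was not read, so the order depends on this choice of length. It was 10.042 kb for EIF2AK2 and 1.741 kb for IRF3. In the wild type B2M was highest, at 153.0 to 169.4 CPM per kb over the 3 libraries, followed by BST2 at 120.2 to 125.8 CPM per kb and ADAR at 63.6 to 64.9 CPM per kb, with no overlap between neighbours in this order. IRF3 came next at 28.4 to 33.3 CPM per kb and TRIM25 at 24.5 to 26.5 CPM per kb. EIF2AK2 (18.5 to 20.2) and STAT2 (17.2 to 19.0) overlapped in CPM per kb, as did SAMHD1 (15.7 to 16.8) and TRIM22 (15.3 to 17.0). ISG15 reached 6.72 to 7.797 CPM per kb. Of the 43 members outside the block of zeros on chromosome 6, 14 had a wild-type mean under 1 CPM per kb.

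Genes above and beside the members in the pathway were read from lists that hold none of the 48. Each gene was counted on its own and positions on the chromosomes were not considered. Called genes of a list that lie beside each other therefore count separately. All 12 interferon ligand genes in the list, which holds part of the IFNA family, had 0 counts in all 6 libraries and were not detectable at this depth. Of 15 tested receptor and JAK-STAT genes, 5 were called higher (33.3%, against 11.9% of all tested genes) and 0 lower (9.26% of all tested genes), with a median log2 fold change of 0.11. These comprised IL10RB and IFNLR1, the chains of the interferon lambda receptor, of which IL10RB rose from 11.6 to 16.6 CPM (log2 fold change 0.52 ± 0.13, edgeR adjusted p = 0.00473). IFNLR1 rose from 14.4 to 19.9 CPM (log2 fold change 0.47 ± 0.11, edgeR adjusted p = 0.00409). STAT3, a transcription factor of cytokine signalling, was called at 0.27 ± 0.06 (edgeR adjusted p = 0.00192). IFNAR2, a chain of the type I receptor, was called at 0.31 ± 0.10 (edgeR adjusted p = 0.0321). Its partner chain IFNAR1, named after its value was seen, was called at 0.23 ± 0.08 (edgeR adjusted p = 0.0449). Both calls were lost in DESeq2, with adjusted p-values of 0.149 for IFNAR1 and 0.16 for IFNAR2, and when single libraries were left out. That of IFNAR1 was also lost with DESeq2's size factors in edgeR (0.0523), upper-quartile scaling (0.0656) and limma-voom (0.0527). For IFNAR1 the adjusted p was 0.0782, 0.099 and 0.118 without wild-type replicates 1, 2 and 3, and 0.343 without mutant replicate 3. For IFNAR2 it was 0.118, 0.0621 and 0.0536 without wild-type replicates 1, 2 and 3, and 0.0761 and 0.0922 without mutant replicates 1 and 3.

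Among 13 tested genes of other nucleic acid sensing, 3 were called higher (23.1%, against 11.9% of all tested genes) and 0 lower, with a median log2 fold change of 0.18. IRF8, a factor of myeloid cells, rose from 2.53 to 5.53 CPM (log2 fold change 1.15 ± 0.24, edgeR adjusted p = 0.0011). Leukocyte markers stood at or near 0 in both groups, and the cause of the rise of IRF8 was not tested. TRAF3, an adaptor between sensors and IRF kinases, was called at 0.28 ± 0.06 (edgeR adjusted p = 0.00235). IRF5 was called at 0.46 ± 0.15 (edgeR adjusted p = 0.0284), and lost the call when wild-type replicate 1 (0.0501), wild-type replicate 3 (0.155), mutant replicate 1 (0.0591) or mutant replicate 3 (0.115) was left out.

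A further 26 tested interferon-stimulated genes held 4 called higher (15.4%, near the 11.9% of all tested genes) and 1 lower (3.85%, against 9.26%), and their median log2 fold change was 0.003. SP110, a nuclear body protein, rose from 2.96 to 7.51 CPM (log2 fold change 1.33 ± 0.20, edgeR adjusted p = 4.22e-05). CMPK2, a mitochondrial nucleotide kinase, rose from 0.779 to 2.47 CPM (1.70 ± 0.37, edgeR adjusted p = 0.0017), and like IFIH1 it passed the filter through the mutant only. The calls of RNF213, a giant ubiquitin ligase (0.78 ± 0.17, edgeR adjusted p = 0.0267), and DDX60, a helicase (0.84 ± 0.29, edgeR adjusted p = 0.0415) were lost when single libraries were left out. For RNF213 the adjusted p was 0.0835, 0.0764, 0.0532 and 0.0729 without wild-type replicates 1, 2 and 3 and mutant replicate 3, and for DDX60 it was 0.199, 0.106 and 0.195 without wild-type replicates 1 and 2 and mutant replicate 2. PNPT1, a mitochondrial RNA exonuclease named after its value was seen, was the gene called lower, from 135.8 to 94.8 CPM (−0.52 ± 0.07, edgeR adjusted p = 5.2e-06).

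Of 15 tested genes of other antigen presentation, 4 were called higher (26.7%, against 11.9% of all tested genes) and 0 lower, with a median log2 fold change of 0.04. ERAP1 and ERAP2 encode aminopeptidases that trim peptides in the endoplasmic reticulum. ERAP1 rose from 32.1 to 45.5 CPM (log2 fold change 0.50 ± 0.09, edgeR adjusted p = 0.000166) and ERAP2 from 1.80 to 3.53 CPM (0.97 ± 0.25, edgeR adjusted p = 0.00798, and 0.0945 in DESeq2). PSME1, a proteasome activator subunit, was called at 0.31 ± 0.07 (edgeR adjusted p = 0.00265), and RFX5, a factor of MHC promoters, at 0.27 ± 0.08 (edgeR adjusted p = 0.0152, or 0.0705 without wild-type replicate 3). Over the 5 lists together, 69 genes were tested, with 16 called higher (23.2%, against 11.9% of all tested genes), 1 lower (1.45%, against 9.26%) and 52 not called.

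Genes next to the called members were read as well. The nearest tested protein-coding gene that is no member was taken on each side of the 15 called members, which gave 22 distinct genes, of which 2 were called higher (9.09%, against 11.9% of all tested genes), 3 lower (13.6% against 9.26%) and 17 were not called. These shares were near those of all tested genes, but members were passed over, and the genes taken lie up to 899.7 kb away. Called members beside each other, as PARP9 and DTX3L, OAS2 and OAS3, and IFITM1 and IFITM2, therefore do not count here. The shares thus cannot show whether adjacent genes changed together. DTX1, 45.0 kb beyond OAS2 in the gene order, was called higher, from 1.42 to 4.04 CPM (log2 fold change 1.51 ± 0.26, edgeR adjusted p = 0.000189). DPP4, 192.5 kb from IFIH1, was called lower, from 10.3 to 4.67 CPM (−1.12 ± 0.18, edgeR adjusted p = 6.82e-05). ACO1, 0.9 kb from DDX58, was higher (0.30 ± 0.06, edgeR adjusted p = 0.00126). AC007390.5, 39.4 kb from EIF2AK2, and KIRREL, 899.7 kb from IFI16, were lower (−0.22 ± 0.05 and −0.19 ± 0.06, edgeR adjusted p = 0.00582 and 0.0349). These 5 genes were named after their values were seen. KIRREL lost its call in DESeq2 (0.0791), without wild-type replicates 1 and 3 (0.158 and 0.0995) and without mutant replicates 1 and 2 (0.0848 and 0.0789). In the authors' deposited table, 10 of the 43 listed members are higher and 3 lower at an adjusted p under 0.05, and 3 have no adjusted p. Of all 13917 genes with an adjusted p in the authors' deposited table, 8.85% are higher and 7.62% lower at that threshold. Those lower there are IFI16, IFITM1 and MX1, and DDX58, OAS2 and IFITM2 do not pass in that table, with adjusted p-values of 0.0587, 0.193 and 0.0557.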

How the data were processed

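PolyA RNA was sequenced as stranded TruSeq libraries, per the labels' protocols, from 3 wild-type and 3 mutant samples. The deposited values are raw counts for every gene in each library. TopHat2 2.1.1, HTSeq, DESeq2 and build hg19 are named, per the submitters' processing notes. What each tool did, the annotation and the strand setting were not given in the sources used here. A DESeq2 table that the authors deposited holds a signal per gene (mean of scaled counts), a log2 fold change with its error, a Wald score, a p-value before and after adjustment, and an unused column that marks 40 genes. The 5 closing totals of reads without a gene (22.4 to 24.3% of reads per library) were set aside, and 0 sample columns were left out.

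Counts were analysed with edgeR 4.0.16 in R 4.3.3: TMM scaling, the filterByExpr filter (14835 of 25665 genes with counts kept), and a robust two-sided quasi-likelihood test of genotype over all tested genes with Benjamini-Hochberg adjustment, called under 0.05. The standard error is the log2 fold change over the root of the F statistic; fitted values carry a prior count of 0.125. The method was tested on simulated data, with changes larger than most of the rises called among the members. That test did not cover smaller changes or genes with few counts. The 12 alternatives used DESeq2 1.42.0, limma 3.58.1, other scalings, no filter, a replicate block and each library left out. For 1 to 3 counts in a group the ratio has a 95% exact Clopper-Pearson interval; intervals and floors cover counting error only.

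The members, lists and tests were chosen with earlier results of these data known. All 48 members are accounted for, with values per library for called ones and gene clusters. From every other list up to 4 called genes by size of change are named, if their log2 CPM averages 0 or more, and any further gene is said to be named after its value was seen. Positions are from GENCODE 29 on GRCh38 and promoters from RefSeq on GRCh38.p14, while the counts were made on hg19, so positions serve only for location, order and promoter sequence.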

Additional observations from a re-analysis of the deposited data

How the results depend on the processing

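The counts of members called, 12 higher and 3 lower, became 12 and 3 with DESeq2's size factors in edgeR, 12 and 3 with upper-quartile scaling, 11 and 4 without the filter, 8 and 3 in DESeq2, 11 and 3 in limma-voom, and 9 to 12 and 2 to 3 when each library was left out. With a replicate block they were 12 and 3. The calls over all genes in the fit, 1768 higher and 1374 lower, moved as well. They became 1691 and 1449 with DESeq2's size factors in edgeR, 1630 and 1588 with upper-quartile scaling, and 1797 and 1693 without the filter. Same-numbered libraries did not deviate together (correlations of deviations 0.076, 0.09 and −0.116), so the numbers were not taken as pairs, and the block gave 1959 genes higher and 1615 lower over all genes against 1768 and 1374 without it. Under the block RNF213 was not called (log2 fold change 0.762, adjusted p = 0.207). In DESeq2 1188 genes were higher and 1022 lower. Of 395 values of the 33 tested members under the alternatives, 367 kept their direction and side of the threshold, 20 kept the direction but lost the call, 8 reversed and 0 gained a call. Without the filter MX1, not among these 33, was also called (edgeR adjusted p = 0.00109). IFIH1, IFITM1, EIF2AK2, ADAR, TRIM22, PARP9, DTX3L and IFI16 were called in every one of the 12 alternatives (8 of 15 called members). In DESeq2 the adjusted p of OAS3 was 0.0595, of TRIM25 0.0592, of DDX58 0.0785, of IFITM2 0.0785, of IRF5 0.134, of DDX60 0.214 and of RFX5 0.0646. Reversals occurred only in members that were not called. When each library was left out, TRIM21 ranged from −7e-04 (without wild-type replicate 1) to 0.114, IRF7 from −0.0544 (without mutant replicate 2; −0.0108 without wild-type replicate 3) to 0.239, MAVS from −0.053 (without mutant replicate 1) to 0.0789 and B2M from −0.0083 (without mutant replicate 2) to 0.0818 on the log2 scale. IFI27 ranged from −0.22 (without mutant replicate 1; −0.155 and −0.0498 without wild-type replicates 1 and 2) to 0.401. The cause was not tested. Depth limits what can be read of the 10 members with counts that were not tested.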
